A study of Arabidopsis thaliana with 9 samples.

Results

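Small RNA (sRNA) loci that are abundant in Arabidopsis thaliana siliques, and that were recovered about equally with ARGONAUTE 3 (AGO3), in a control immunoprecipitation and in total sRNA, are described here. The genome was divided into 500 bp windows, and a window was taken when it held at least 1000 reads of total sRNA and when 2 ratios both lay from 0.5 to 2. The ratios were AGO3 immunoprecipitate over control immunoprecipitate and AGO3 immunoprecipitate over total sRNA, each computed from reads-per-million (RPM, over chromosomes 1 to 5) plus 1. The windows were thus chosen by the measured read counts of all 3 libraries. This gave 1945 windows of the 2863 that reached the read minimum (67.9%), out of 238296 windows on chromosomes 1 to 5. They are called in-band windows below, and the remaining 918 abundant windows are called out-of-band windows.

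AGO3 was immunoprecipitated through its tag from siliques of ago3-3 plants carrying pAGO3:FHA-AGO3, a tagged copy under the AGO3 promoter. The control immunoprecipitation used FLAG antibody on wild-type siliques, which have no tagged protein, and total sRNA was extracted from wild-type siliques with trizol. All plants were Columbia-0, siliques (the fruits with the developing seeds) were taken 1 to 5 days after pollination, and there was 1 sRNA library per condition, so no sRNA value has a replicate check. The transcripts of the genes at these windows came from mRNA libraries, 2 biological samples per genotype, made from siliques homozygous for ago3-3, heterozygous for it, or wild type.

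Argonautes are proteins that bind sRNAs and use them as guides to matching RNA or to loci that produce matching RNA. Plant microRNAs (miRNAs) are cut from the hairpin transcripts of MIR genes and guide the cleavage or repression of target mRNAs, most of them through AGO1. Small interfering RNAs (siRNAs) arise from longer double-stranded RNA over transposons, repeats and TAS transcripts. AGO3 is a close relative of AGO2 and is its neighbour in the genome. The deposited windows carry neither read length nor strand, so miRNAs and siRNAs are told apart here only by the annotated gene at a window.

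The AGO3 immunoprecipitate held 37189850 reads, the control 25613847 and total sRNA 40262802, at which 3 reads correspond to 0.0807, 0.117 and 0.0745 RPM. In-band windows took 54.6% of the reads in the AGO3 immunoprecipitate, and 65.1% in both the control and total sRNA. Out-of-band windows took 24.9%, 12.6% and 15.5% in the same order, and windows under the minimum took 20.5%, 22.4% and 19.4%. The exact binomial 95% intervals of these shares are narrower than 0.05 percentage points and reflect counting error alone, because reads need not stem from separate molecules. Each library was scaled to its own total, so reads taken up by AGO3-enriched windows lower the RPM of all other windows in that library.

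The 2 ratios chose the windows, and they are given as a description without a test. AGO3 over control had a median of 0.891 (quartiles 0.746 and 1.10) and was below 1 in 1248 in-band windows (64.2%). AGO3 over total sRNA had a median of 0.772 (quartiles 0.639 and 0.956) and was below 1 in 1524 (78.4%). Counting error alone did not span these differences in most windows. The exact 95% interval of the read ratio AGO3 over control lay wholly below 1 in 1079 windows (55.5%), wholly above 1 in 520 (26.7%) and held 1 in 346 (17.8%). For AGO3 over total sRNA it lay below 1 in 1430 windows (73.5%) and above 1 in 335 (17.2%). The in-band windows therefore include many modest differences within the 2-fold limits, and equal recovery describes them only to that width.

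**Figure D1:**
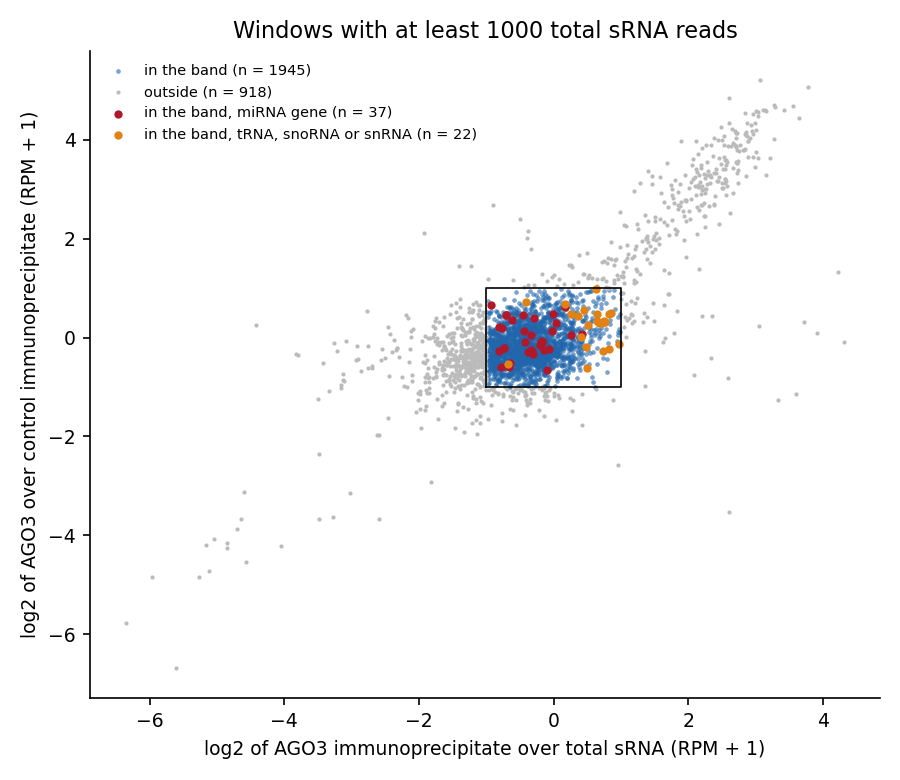
AGO3 immunoprecipitate over total sRNA (horizontal axis) and over the control immunoprecipitate (vertical axis), as log2 of RPM plus 1, for the 2863 windows with at least 1000 total sRNA reads. The box marks the limits of 0.5 and 2 that define the 1945 in-band windows; the 37 at miRNA genes lie mostly left of 0, and 20 of the 22 at tRNA, snoRNA or snRNA genes lie right of it.

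Of the 918 out-of-band windows, 433 were inside the limits against the control but under 0.5 against total sRNA, and 242 were over 2 on both ratios. A further 71 were under 0.5 on both. Windows at the limits differed little across them. The in-band window closest to the lower limit of AGO3 over control, chr3:15631501-15632000, stood at 0.50, and the nearest window outside, chr2:7066501-7067000, at 0.499. At the upper limit the in-band window chr5:16258001-16258500 stood at 1.99 and chr2:1293501-1294000, at the pseudogenes AT2G04033 and AT2G04035, at 2.01. Against total sRNA the lower limit parted chr1:11421001-11421500 (0.501) from chr3:13593501-13594000 (0.50 after rounding), and the upper limit parted chr4:8947501-8948000 at the non-coding RNA gene AT4G02955 from chr1:13881001-13881500 at the pseudogene AT1G36710 (both 2.00 after rounding). The in-band window with the fewest total sRNA reads held 1001, and the closest window under the minimum that met both ratios held 997.

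miRNA genes supplied few in-band windows and a large part of the reads. In-band windows at miRNA genes numbered 37 (1.90% of the in-band windows, against 4.90% of the out-of-band windows and 0.184% of all windows), and they held 35.4% of the total sRNA reads in in-band windows. The annotation used has 326 miRNA genes, and 37 of them overlapped an in-band window. By family, 49 had an abundant window. In 16 of them every abundant window was in band, in 25 none was, and 8 had windows on both sides.

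The MIR165 and MIR166 genes dominated the set. Their miRNAs repress the class III homeodomain leucine zipper (HD-ZIP III) transcription factors, which pattern meristems, vasculature and the upper and lower sides of organs. The 9 windows of MIR165a, MIR165b and MIR166a to MIR166g took 18.2% of the reads with AGO3, 20.0% in the control and 21.1% in total sRNA. They were 91.7% of the total sRNA reads of in-band miRNA windows and 32.4% of those of all in-band windows. All 9 stood slightly below both other libraries.

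MIR166a (chr2:19176001-19176500) was the most read window. It held 1085710 reads in the AGO3 immunoprecipitate (29194 RPM), 834238 in the control (32570 RPM) and 1349080 in total sRNA (33507 RPM). Its ratio was 0.896 over the control (95% interval 0.894 to 0.899) and 0.871 over total sRNA. MIR166e (chr5:16775501-16776000) stood at 12203 RPM with AGO3, 13173 in the control and 13841 in total sRNA, with a ratio of 0.926 over the control. MIR165a (chr1:78501-79000) had 14200 RPM with AGO3, 17452 in the control and 18401 in total sRNA, and MIR165b (chr4:369501-370000) had 13708, 16519 and 17165 RPM in the same order. Their ratios over the control, 0.814 and 0.830, were the lowest of the 9.

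The MIR166b, MIR166c, MIR166d, MIR166f and MIR166g windows differed little from each other in every library. Each held 832478 to 848182 AGO3 reads, 612225 to 620003 control reads and 1024590 to 1039580 total sRNA reads. How reads that match several places were counted is not given in the sources used here, so the summed shares above may count a read at more than 1 window. Over all in-band windows, 138 were within 2% of another in-band window in all 3 libraries, which leaves 1869 distinct ones. Among the 250 in-band windows with at least 10000 total sRNA reads only 7 had such a match, namely the 5 MIR166 windows and those of MIR398b and MIR398c.

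**Figure D2:**
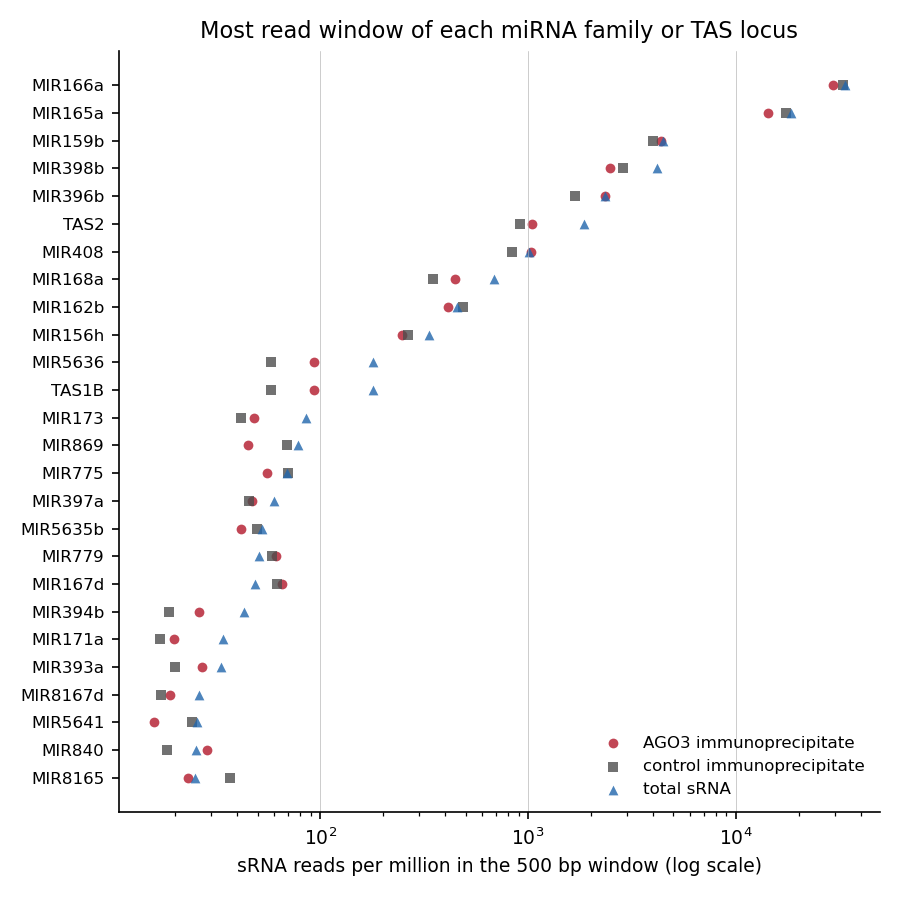
RPM in the 3 sRNA libraries (horizontal log axis) for the most read in-band window of each miRNA family or TAS locus, in order of total sRNA. By construction AGO3 lies within 2-fold of the control and of total sRNA in each row (RPM plus 1). Control against total sRNA was not bounded directly, and stood at 58.1 and 179 RPM at MIR5636, which shares its window with TAS1B. The levels run from 33507 RPM of total sRNA at MIR166a to 24.9 RPM at MIR8165, which overlaps its window by only 12 bp.

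Among miRNAs that act on the silencing machinery, those of MIR168a, MIR162b and MIR173 were in band and that of MIR403, which targets AGO2 mRNA, was not. This list is not complete, and MIR390a and MIR390b were also out of band, at 2.68 and 2.76 times the control with AGO3. The MIR403 window (chr2:19415001-19415500) had 493 RPM with AGO3, 337 in the control and 1138 in total sRNA, a ratio of 0.434 over total sRNA. MIR168a, whose miRNA targets AGO1 mRNA, stood at 444 RPM with AGO3, 348 in the control and 683 in total sRNA (chr4:10578501-10579000, ratios 1.28 and 0.650). MIR162b, whose miRNA targets the mRNA of the processing enzyme DCL1, stood at 411 RPM with AGO3, 486 in the control and 454 in total sRNA (chr5:7740501-7741000, ratios 0.846 and 0.904). MIR173, whose miRNA starts siRNA production from TAS1 and TAS2 transcripts, had 48.3 RPM with AGO3, 41.7 in the control and 85.2 in total sRNA (chr3:8236001-8236500, ratios 1.15 and 0.571). MIR168a and MIR173 were thus above the control and below total sRNA with AGO3, and MIR162b was below both.

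The miRNAs known for response to low copper, which target mRNAs of copper proteins, were also in band at MIR398b, MIR398c, MIR408 and MIR397a. MIR398b (chr5:4691001-4691500, also in the protein-coding gene AT5G14550) had 2487 RPM with AGO3, 2875 in the control and 4151 in total sRNA. MIR408 (chr2:19319501-19320000) had 1030 RPM with AGO3, 836 in the control and 1007 in total sRNA. MIR397a (chr4:2625501-2626000) had 47.2 RPM with AGO3, 45.6 in the control and 60.0 in total sRNA. The window of the related MIR397b, which also holds MIR857, was out of band, at 2.10 times the control.

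Close relatives could fall on opposite sides of the limits. MIR159b (chr1:6220501-6221000), a source of the miRNA that represses MYB33 and related regulators, stood at 4372 RPM with AGO3, 4001 in the control and 4461 in total sRNA, a ratio of 1.09 over the control (95% interval 1.08 to 1.10). MIR159a was out of band, with 6228 RPM with AGO3, 1796 in the control and 7887 in total sRNA, a ratio of 3.47. MIR159a exceeded its relative in total sRNA and with AGO3, and lay below it in the control. MIR396b (chr5:13611501-13612000), whose miRNA represses GROWTH-REGULATING FACTOR (GRF) genes, was in band at 2333 RPM with AGO3, 1677 in the control and 2340 in total sRNA, with a ratio of 1.39 over the control. MIR396a was out of band at 2.28. MIR393a, a source of the miRNA against auxin receptor mRNAs, was in band at 1.33 times the control, and MIR393b out of band at 4.49.

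Of the remaining families with an in-band window, MIR156h had 248 RPM with AGO3, 263 in the control and 332 in total sRNA. The most read windows of the other families ran, with AGO3, from 15.8 RPM at MIR5641 to 93.1 RPM at MIR5636, which shares its window with TAS1B. MIR167d (1.34 over total sRNA), MIR779 (1.19), MIR840 (1.13) and MIR408 (1.02) were the 4 in-band miRNA genes with AGO3 above total sRNA; in the other 33 it was lower. MIR840 also stood at 1.53 times the control. MIR8165, at 0.634, MIR869, at 0.660, and MIR5641, at 0.666, were the lowest in-band miRNA genes against the control. MIR8165 overlapped its window by only 12 bp.

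TAS transcripts are cut by miRNA-guided Argonautes and made into phased siRNAs. TAS2 was in band (chr2:16539501-16540000), with 1042 RPM with AGO3, 917 in the control and 1863 in total sRNA, as were both abundant windows of TAS1B. TAS1C was out of band at 1939 RPM with AGO3, 1458 in the control and 5155 in total sRNA. TAS3 had 314, 329 and 884 RPM in the same order. In both of these AGO3 was under 0.5 of total sRNA, and in TAS2, at 0.560, it was just over.

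Windows with no annotated gene made up most of the in-band set. They numbered 1182 (60.8% of in-band windows, against 44.9% of out-of-band windows and 25.6% of all windows) and held 37.2% of the in-band total sRNA reads. Protein-coding genes lay at 446 in-band windows (22.9%, against 33.8% of out-of-band and 61.6% of all windows), with any overlap counted. Where the gene had to cover at least 250 bp of the window, the shares were 14%, 24.7% and 54.1% in the same order. Pseudogenes lay at 160 (8.23%, against 7.19% and 10.3%) and other non-coding RNA genes at 98 (5.04%, against 5.01% and 1.89%). Among abundant windows, the share in band was 74.2% where there was no gene and 59.0% at protein-coding genes. It was 45.1% at miRNA genes and lowest, at 36.1%, at tRNA, snoRNA or snRNA genes. These shares are set by the rule and by where sRNAs are abundant, and were not tested.

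**Figure D3:**
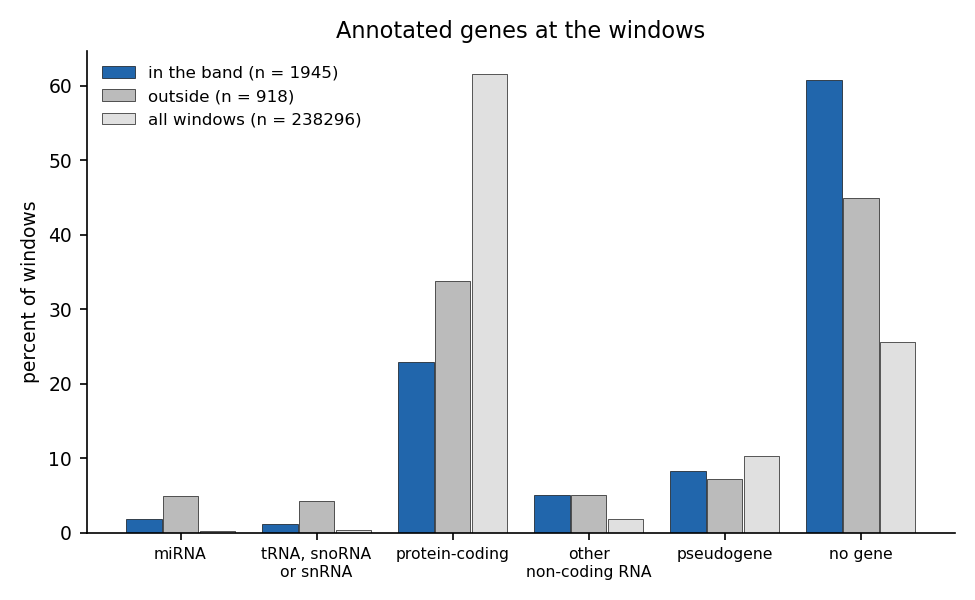
Percent of in-band, out-of-band and all windows on chromosomes 1 to 5 (bars, left to right) by the annotated gene they overlap. Windows with no gene are 60.8% of the in-band bars and 25.6% of all windows, and protein-coding genes are 22.9% and 61.6%.

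The tRNA, snoRNA and snRNA windows stood apart from the other classes in band. These genes encode structural RNAs of translation, rRNA modification and splicing. Most abundant windows of this class, 39 of them, were out of band, so the values here cover only its in-band part. Among the 22 in-band windows the median was 1.26 for AGO3 over control and 1.55 for AGO3 over total sRNA. Of these 22, 20 were above total sRNA. The control itself was above total sRNA there, with a median ratio of 1.28. The most read, at AT4G39195 (chr4:18255001-18255500), had 294 RPM with AGO3, 183 in the control and 261 in total sRNA. The windows of the spliceosomal U2 snRNA genes U2.4 (189, 229 and 113 RPM) and U2.5 (114, 126 and 57.8 RPM) had about as much in the control as with AGO3, and both exceeded total sRNA. A median above 1 against total sRNA was seen in no other class, where it lay from 0.735 (pseudogenes) to 0.799 (miRNA genes).

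In-band windows lay in the pericentromere, the region of 2.5 Mb either side of the centromere that is rich in transposons, at a higher share than out-of-band windows. There were 690 (35.5%), against 20.8% of out-of-band windows and 21.0% of all windows. The in-band share by chromosome ran from 25.4% on chromosome 1 to 46.4% on chromosome 4, and the out-of-band share from 16.5% to 25.9%. The difference was not tested, since neighbouring windows are not independent. Pericentromeric in-band windows had a median AGO3 over control of 0.850, and those on the arms 0.920. Over total sRNA the order was the other way, with 0.807 in the pericentromere and 0.756 on the arms. With the region taken as 1.5 Mb either side, it held 20.3% of in-band, 7.63% of out-of-band and 12.6% of all windows. The proportion of abundant windows in band ran from 64.8% on chromosome 1 to 72.8% on chromosome 5.

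Reads were concentrated in a few windows. The 10 most read in-band windows held 33.6% of the total sRNA reads of the set and the 100 most read 71.0%. Outside miRNA windows, 70 windows held 50%. The ratio over the control was lower at greater depth, and that over total sRNA was not. The median over the control was 0.922 for the 1049 windows with 1000 to under 2000 total sRNA reads, 0.881 for the 646 with 2000 to under 10000, 0.810 for the 208 with 10000 to under 100000 and 0.794 for the 42 with at least 100000. Over total sRNA the medians of the same 4 groups were 0.744, 0.800, 0.850 and 0.780. Among those 42, the 12 miRNA windows had a median of 0.926 and the other 30 a median of 0.727, with 29 of the 30 below the control. The shallowest group, 53.9% of the windows, held only 5.52% of the reads.

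The 30 most read windows outside miRNA genes held at least 100000 total sRNA reads each. Of these, 13 had no annotated gene and 12 were pericentromeric. All 30 had an abundant window beside them, and the more read neighbour held a median of 19.7% of the window's own reads. The most read, chr4:13902501-13903000 with no gene, stood at 5467 RPM with AGO3, 6851 in the control and 7626 in total sRNA, a ratio of 0.798 over the control. The pseudogene AT3G43832 (chr3:15682001-15682500) stood at 5207, 7317 and 7166 RPM in the same order, and the protein-coding gene AT1G49260 (chr1:18226001-18226500) at 4856, 7586 and 6968. The non-coding RNA gene AT3G05025 (chr3:9707001-9707500) stood at 4147 RPM with AGO3, 8085 in the control and 4425 in total sRNA, near the lower limit at 0.513 over the control. The control was the highest of the 3 libraries in the last 3 of these 4 windows.

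Most in-band windows were solitary. Of the 1945, 1228 (63.1%) had no in-band neighbour, 194 stood in runs of 2, 447 in runs of 3 to 9 and 76 in 3 runs of 10 or more. The windows beside them that were not in band numbered 2789, and 2688 of these were under the read minimum, with a median of 30.5 total sRNA reads. Only 101 were abundant and out of band. Isolation was not particular to the set: an abundant window lay beside 40.3% of in-band windows and 35.4% of out-of-band windows. Solitary windows had a median of 1560 total sRNA reads and windows in runs 3061. Of the solitary ones 25.9% were pericentromeric and of those in runs 51.9%. Median AGO3 over control was 0.924 for solitary windows and 0.845 for windows in runs, while AGO3 over total sRNA was 0.737 for solitary windows and 0.846 for windows in runs.

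The 3 longest runs, of 30, 25 and 21 windows, adjoin each other on chromosome 5, parted by 1 window each that held 910 and 912 total sRNA reads. Together they form a block of 39.0 kb (chr5:11229001-11268000) within the pericentromere, with no annotated gene. The block held 138447 AGO3 reads (3723 RPM), 117588 control reads (4591 RPM) and 163734 total sRNA reads (4067 RPM). Over its 78 windows AGO3 over control ran from 0.645 to 1.19 and was below 1 in 76. Total sRNA ran from 910 to 4693 reads per window. The 10 windows on each side had medians of 35.0 and 31.5 reads. The window just before the block held 91 reads and the first after it 698.

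**Figure D4:**
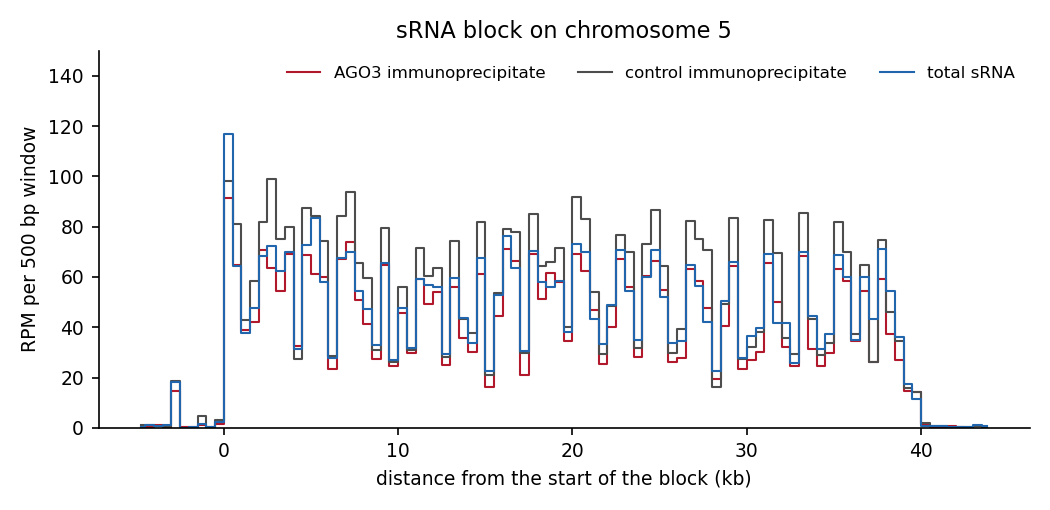
RPM per 500 bp window in the 3 sRNA libraries along the 39.0 kb block on chromosome 5 and its flanks, by distance in kb from the start of the block. The 3 lines follow each other window by window, with the control highest in most windows, and fall to near 0 RPM on both sides.

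Other long runs had genes. A run of 9 windows at chr5:22705001-22709500 covered the pseudogene AT5G56061 and the protein-coding gene AT5G56070 and held 8235 RPM with AGO3, 9658 in the control and 11003 in total sRNA. Another run of 9, at AT5G29550 (chr5:11184501-11189000), held 1068, 1355 and 1810 RPM in the same order. The remaining run of 9, at chr4:3057001-3061500 over AT4G05175, AT4G05185, AT4G05195 and AT4G06477, held 907 RPM with AGO3, 802 in the control and 1215 in total sRNA. It was the only run of these 3 with AGO3 above the control.

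The in-band windows overlapped 727 annotated genes, of which 568 are rows of the mRNA table and 416 are protein-coding. The protein-coding genes at in-band windows had low mRNA. Their wild-type median was 0.67 counts-per-million (CPM) per kb of gene, against 3.83 CPM per kb for the 27444 protein-coding genes of the table. Genes at out-of-band windows only were also below all genes. Without scaling to gene length, the wild-type medians were 0.849 CPM in band, 2.76 CPM at out-of-band windows only and 8.53 CPM for all protein-coding genes. Of the 416, 68 (16.3%) had 0 counts in all 6 mRNA libraries, against 8.0% of all protein-coding genes and 10.7% of the 261 at out-of-band windows only. Among the 40 genes whose in-band window held at least 10000 total sRNA reads, 17 (42.5%) had 0 counts in all 6 libraries, against 15.6% of the 231 genes with windows of 1000 to under 2000 reads and 10.3% of the 145 with 2000 to under 10000. Neighbouring genes can share a window, and these shares were not tested.

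Of the 15 protein-coding genes with the most read in-band windows, 9 had 0 mRNA counts in every library, 3 had a few, and 3 were expressed enough to test. AT1G49260, AT2G16620 and AT5G56070 were among those at 0. AT5G14550, which holds MIR398b, had 1368 to 1516 counts in the ago3-3 libraries and 1442 and 1204 in wild type. AT1G31175, which overlapped its in-band window by only 30 bp, had 209 to 242 counts in the ago3-3 libraries and 205 and 183 in wild type.

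Whether transcripts at these loci differed when AGO3 was mutated was asked with the mRNA libraries, which were not used to choose the windows. The libraries held 30338426 to 36258968 counts. AGO3 itself stood at 2.11 and 3.29 CPM in homozygotes, 12.6 and 12 CPM in heterozygotes, and 30.4 and 17.7 CPM in the wild type, with no overlap between homozygous or heterozygous and wild-type libraries. Homozygotes differed from the wild type by -3.15 ± 0.31 (log2, SE), with an adjusted p of 0.142 in edgeR's quasi-likelihood test (Benjamini-Hochberg) and 1.67e-19 in DESeq2. Homozygous replicate 2 and wild type replicate 1 stood apart from the other 4 libraries on the first principal component (37.3% of variance). The seed storage markers summed to 66.5 and 2.34 CPM in homozygotes, 29.9 and 129 CPM in heterozygotes, and 3.92 and 18.0 CPM in the wild type, lowest in those 2 libraries, and their part in the differences was not tested. The 7 young seed and fruit markers, FUL, STK, SHP1 and SHP2 among them, were above 0 in every library for 6 members and summed to 617 and 615 CPM in homozygotes, 588 and 565 CPM in heterozygotes, and 649 and 614 CPM in the wild type. Nothing in the labels ties the 2 libraries of a genotype to separate plants beyond the statement that they are biological samples, and the p-values measure only the spread between them.

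In the fit without a block, edgeR called no gene at an in-band window in either genotype. Between homozygous and wild-type siliques, edgeR called 0 of the 22702 genes tested (0% at an adjusted p under 0.05) and 0 of the 290 tested genes at in-band windows. DESeq2 called 76 of 16331 genes (0.465%), 2 of them at in-band windows. An unadjusted edgeR p under 0.05 was reached by 1293 genes (5.70%), and by 18 of the 290 (6.21%). Of these 18, 6 were higher and 12 lower, against 2.13% higher and 3.57% lower among all genes. The median log2 difference of the 290 was -0.01, against 0.01 for all genes tested, with 138 positive and 152 negative. The 290 are those that passed the filter on low counts, out of 727. With homozygous and wild-type libraries paired across replicate numbers, a block chosen after seeing the data, edgeR called 136 genes. Of the 277 genes tested at in-band windows in that fit 6 were called, and the share over all genes is not given here. That fit used only the homozygous and wild-type libraries, which leaves few residual degrees of freedom.

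Between heterozygous and wild-type siliques, edgeR again called 0 genes (0%), 1006 (4.43%) reached an unadjusted p under 0.05, and DESeq2 called 18 of 7669 (0.235%). At in-band windows edgeR and DESeq2 called 0, 17 of 290 (5.86%) reached an unadjusted p under 0.05 (10 higher and 7 lower, against 1.80% and 2.63% of all genes), and the median was -0.02, against 0.00 for all genes. Both comparisons share the wild-type libraries.

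The 2 genes at in-band windows that DESeq2 called were both lower in homozygous siliques. EXL5, a member of the EXORDIUM-LIKE family of secreted proteins, stood at 89.4 and 111 CPM in homozygotes, 113 and 125 CPM in heterozygotes, and 184 and 156 CPM in the wild type. Its log2 difference between homozygous and wild type was -0.76 ± 0.15 (SE, adjusted p = 0.854 in edgeR and 0.00201 in DESeq2). AT5G33370 stood at 148 and 137 CPM in homozygotes, 145 and 181 CPM in heterozygotes, and 284 and 198 CPM in the wild type, a log2 difference of -0.76 ± 0.19 (SE, adjusted p = 0.862 in edgeR and 0.0288 in DESeq2). Without wild type replicate 1 the difference of AT5G33370 was -0.47. In both genes the wild-type libraries did not overlap the ago3-3 libraries. The EXL5 window (chr2:7496001-7496500) held 55.4 RPM with AGO3, 71.7 in the control and 54.6 in total sRNA. EXL5 overlapped its window by 292 bp. AT5G33370 overlapped its window by only 33 bp, and the pseudogene AT5G33365 overlapped the same window by 330 bp.

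Among other genes at in-band windows with mean log2 CPM at or above 1, the largest differences did not pass edgeR, and DESeq2 called none of them. The lowest in homozygous siliques was PPME1, a pectin methylesterase of pollen, at 6.37 and 4.18 CPM in homozygotes, 9.28 and 18.5 CPM in heterozygotes, and 13.0 and 6.95 CPM in the wild type (log2 difference -0.93 ± 0.41, SE). The pollen markers, PPME1 among them, summed to 105 and 70.0 CPM in homozygotes, 139 and 195 CPM in heterozygotes, and 178 and 142 CPM in the wild type, and all 5 were above 0 in every library. In whole siliques fewer pollen cells and less RNA per cell cannot be told apart. GH9B10, a glycosyl hydrolase gene, had a log2 difference of -0.92 ± 0.37 (SE), and the snRNA genes U2.5 and U2.4 had -0.89 ± 0.41 and -0.87 ± 0.35 (SE). U2.4 stood at 31.6 and 24.9 CPM in homozygous and at 31.6 and 71.8 in wild-type libraries, so that wild type replicate 2 alone was high. Without that library both U2 differences were -0.16, and without wild type replicate 1 those of PPME1 and GH9B10 were both -0.40.

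The largest positive differences between homozygous and wild type were AT1G49500 (1.29 ± 0.41, SE), AT1G57540 (1.15 ± 0.35), DIN2 (1.11 ± 0.70), DPBF2 (0.85 ± 0.75) and TAS1B (0.69 ± 0.32), all on the log2 scale. None passed edgeR, and DESeq2 called none, giving no adjusted p for AT1G57540 and TAS1B. AT1G57540 overlapped its in-band window by only 21 bp. Leaving out 1 library at a time moved DPBF2 to 0.13 without wild type replicate 1, 0.18 without homozygous replicate 1 and 2.25 without wild type replicate 2. Over such fits AT1G49500 ran from 0.87 to 1.86, AT1G57540 from 0.80 to 1.59 and TAS1B from 0.40 to 1.09, each of these limits set by leaving out a wild-type library. AT1G49500 stood at 8.22 and 5.38 CPM in homozygotes, 7.45 and 4.40 CPM in heterozygotes, and 1.86 and 3.72 CPM in the wild type. DIN2, a beta-glucosidase gene induced by darkness and sugar shortage, was at 18.6 CPM in homozygous replicate 2 and between 3.51 and 8.74 in the other 5 libraries, and its difference was -0.54 without that library. The defence markers summed to 4.08 and 26.2 CPM in homozygous and 7.22 and 2.22 in wild-type libraries, so the same homozygous library was high there, and the part of this in the DIN2 value was not tested. TAS1B transcript stood at 2.68 and 3.10 CPM in homozygotes, 3.00 and 3.07 CPM in heterozygotes, and 2.19 and 1.36 CPM in the wild type. Its wild-type libraries did not overlap the ago3-3 libraries, while homozygotes and heterozygotes overlapped.

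**Figure D5:**
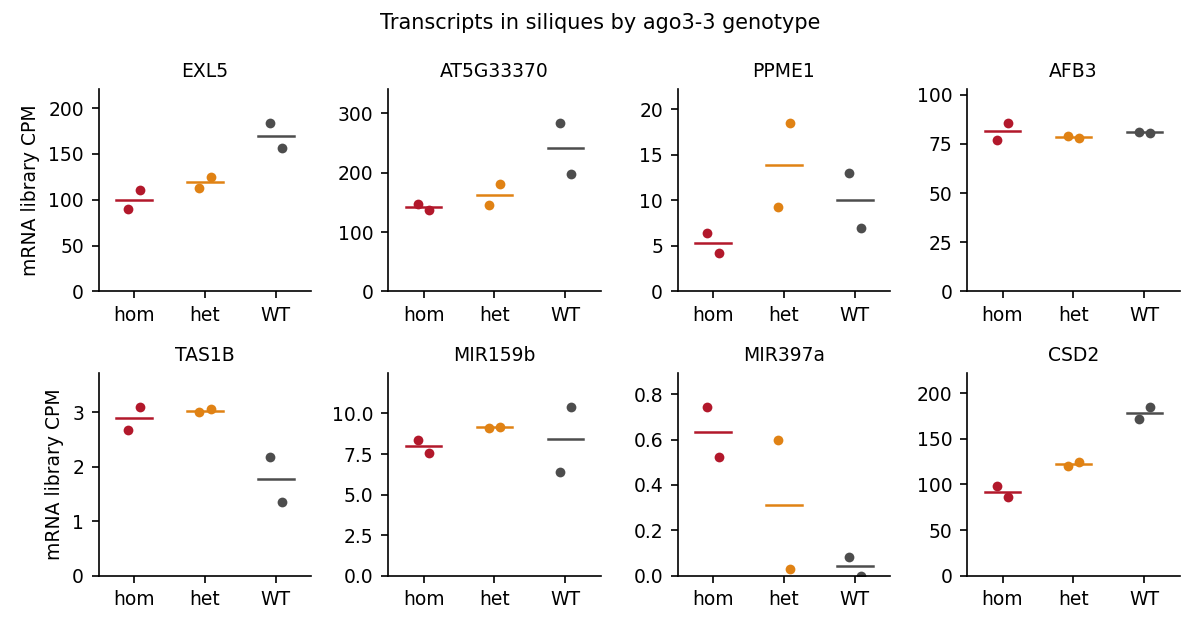
mRNA CPM in homozygous (hom), heterozygous (het) and wild-type (WT) siliques for 7 genes at in-band windows and for CSD2, a target of miR398; each point is a library and each line the mean of 2. CSD2, EXL5 and AT5G33370 were lower in both homozygous libraries than in both wild-type libraries, and AFB3 and MIR159b were not.

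Of the 37 miRNA genes at in-band windows, 16 had enough counts in the mRNA libraries to test, with a median log2 difference of 0.00 between homozygous and wild type, 8 positive and 8 negative. MIR159b stood at 8.37 and 7.59 CPM in homozygotes, 9.13 and 9.17 CPM in heterozygotes, and 6.41 and 10.4 CPM in the wild type. MIR397a, the 1 of these with an unadjusted p under 0.05 in that comparison, had 25 and 17 mRNA counts in homozygotes, 21 and 1 in heterozygotes, and 3 and 0 in the wild type (adjusted p = 0.862, edgeR). MIR166a, the most read sRNA window, had 4 and 5 mRNA counts in homozygotes, 11 and 11 in heterozygotes, and 12 and 3 in the wild type. For MIR166a the sRNA level of the window and the mRNA library counts of the gene were thus far apart. The window may include reads that also match other MIR166 windows.

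Known targets of the in-band miRNAs were listed from textbook knowledge, 45 genes in 13 lists, of which 44 were tested. Between homozygous and wild-type siliques their median log2 difference was 0.02 (0.01 for all genes), 25 positive and 19 negative. An unadjusted p under 0.05 was reached by 7 (15.9%, against 5.70% of all genes). Of these 7, 1 was higher and 6 lower, against 2.13% higher and 3.57% lower among all genes. edgeR called 0 and DESeq2 1, against 0% and 0.465% of all genes. Between heterozygous and wild-type siliques the median was -0.05, against 0.00 for all genes. An unadjusted p under 0.05 was reached by 3 (6.82%, against 4.43% of all genes). All 3 were lower, against 1.80% higher and 2.63% lower among all genes. There edgeR called 0 and DESeq2 1, against 0% and 0.235% of all genes.

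The call was CSD2, the chloroplast copper/zinc superoxide dismutase gene and a target of miR398. It stood at 98.3 and 85.9 CPM in homozygotes, 120 and 125 CPM in heterozygotes, and 172 and 185 CPM in the wild type, and the 3 genotypes did not overlap. CSD2 differed from the wild type by -0.96 ± 0.11 (log2, SE) in homozygotes (adjusted p = 0.327 in edgeR and 2.43e-10 in DESeq2) and by -0.54 ± 0.11 (log2, SE) in heterozygotes (adjusted p = 0.955 in edgeR and 0.0154 in DESeq2). CCS, the copper chaperone gene of these enzymes and another miR398 target, stood at 23.8 and 24.6 CPM in homozygotes, 27.3 and 28.5 CPM in heterozygotes, and 30.9 and 31.4 CPM in the wild type (homozygous minus wild type -0.36 ± 0.11, SE, not past either test). CSD1, the cytosolic dismutase gene, had a difference of -0.10 ± 0.12 (SE). CCS and CSD1 were named after their values were seen.

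Of the laccase genes targeted by miR397, which encode copper enzymes of lignin formation, LAC4 stood at 456 and 419 CPM in homozygotes, 423 and 522 CPM in heterozygotes, and 607 and 547 CPM in the wild type (homozygous minus wild type -0.40 ± 0.14, SE). LAC2 had a difference of -0.68 ± 0.22 (SE) and LAC17 of -0.05 ± 0.20 (SE), and none of the 3 passed either test. LAC2 and LAC17 were named after their values were seen. The LAC17 difference was 0.19 without homozygous replicate 2.

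The HD-ZIP III genes, targets of the most abundant miRNAs of the set, did not pass either test. PHV stood at 91.4 and 98.4 CPM in homozygotes, 92.0 and 81.1 CPM in heterozygotes, and 72.1 and 100 CPM in the wild type, a log2 difference of 0.14 ± 0.16 (SE) between homozygous and wild type. The differences of PHB, REV and ATHB15 were 0.21 ± 0.18, 0.10 ± 0.10 and 0.10 ± 0.14, and that of ATHB8 was -0.21 ± 0.17 (SE). The last 4 were named after their values were seen. AGO1 (0.21 ± 0.11) and DCL1 (0.23 ± 0.10), the targets of miR168 and miR162, and MYB33 (-0.21 ± 0.14), a target of miR159, did not pass either, nor did GRF3 (0.11 ± 0.26), the most expressed GRF. The most expressed listed targets of miR156, miR167, miR171 and miR394 also did not pass. They were SPL11 (0.02 ± 0.11), ARF6 (-0.05 ± 0.13), HAM2 (-0.32 ± 0.12) and LCR (0.21 ± 0.11). HAM2 had an unadjusted edgeR p of 0.0263 in homozygotes and 0.0487 in heterozygotes.

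Some targets lay at in-band windows themselves. Of the 83 target genes listed for all families, 4 overlapped an in-band window, namely SPL2 and SPL10 (targets of miR156), AFB3 (miR393) and GRF7 (miR396); SPL2, SPL10 and GRF7 were named after their values were seen. The SPL10 window (chr1:9505501-9506000) held 58.8 RPM with AGO3, 59.8 in the control and 62.3 in total sRNA. The AFB3 window (chr1:4368501-4369000) held 21.9 RPM with AGO3, 15.8 in the control and 31.3 in total sRNA. AFB3 mRNA stood at 77.2 and 85.8 CPM in homozygotes, 79.2 and 77.8 CPM in heterozygotes, and 81.1 and 80.7 CPM in the wild type, a difference of 0.01 ± 0.10 (SE) between homozygous and wild type. SPL10 differed by 0.06 ± 0.12 and SPL2 by -0.27 ± 0.13 (SE).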

How the data were processed

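The deposited sRNA table holds the authors' read counts, whole numbers per 500 bp window, in 1 column for each of 3 libraries. The deposited mRNA table holds the authors' estimated counts per gene for 6 libraries, of which 7.88% were not whole; they were rounded before testing. The tools named, per the submitters' processing notes, are Bowtie, HISAT2 and featureCounts, with genome build TAIR10. The sources used here do not give versions, settings, strand or the handling of reads with several matches. RPM used column totals over chromosomes 1 to 5, with a pseudocount of 1 in ratios. Intervals are exact Clopper-Pearson 95% intervals for read ratios without the pseudocount.

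Window coordinates are TAIR10, counted from 1. Genes were placed with a RefSeq table of assembly TAIR10.1, used for names and positions of genes. This placement was checked on 326 miRNA genes: the median total sRNA was 167 reads in place and 2 to 4 reads after a move of up to 5000 bp. The pericentromere was set as the 2.5 Mb on each side of position 15 Mb (chromosome 1), 4 Mb (chromosomes 2 and 4), 14 Mb (chromosome 3) and 12 Mb (chromosome 5).

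edgeR 4.0.16 (quasi-likelihood test, TMM, Benjamini-Hochberg, expression filter; limma 3.58.1, R 4.3.3) was fitted to all 6 mRNA libraries without a block, with 3 residual degrees of freedom. Of 34262 rows, 22702 were tested at an adjusted p of 0.05. The SE of a log2 difference was derived as its absolute value over the square root of the edgeR F statistic. DESeq2 1.42.0 was the alternative. A window's class is its first annotated gene type in the order miRNA, structural RNA, protein-coding, other non-coding RNA, pseudogene. Named windows were the 10 most read, the most read of each family or class, the longest runs and those at the limits. Named genes were AGO3, the 5 largest differences in each direction at in-band windows with mean log2 CPM at or above 1, as fewer than 5 passed, and the most expressed target of each miRNA family; the others were chosen after their values were seen. The windows and gene lists were chosen with earlier results of these data known. Windows were analysed in Python 3.11.15 with pandas 2.3.3 and scipy 1.17.1, and the scripts were tested on simulated data.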

Additional observations from a re-analysis of the deposited data

How the results depend on the processing

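With a minimum of 500 total sRNA reads 4056 windows were in band, with 2000 there were 896, and with limits of 0.67 and 1.5 there were 1080, or 37.7% of abundant windows. A pseudocount of 5 put 73.3% of abundant windows in band, and scaling to totals without the 100 most read windows 56%. Between homozygous and wild type, edgeR without an expression filter called 4 genes, DESeq2 76 (2 at in-band windows), and leaving out each replicate gave 0 to 3, the 3 without wild type replicate 2. Between heterozygous and wild type, DESeq2 called 18, and leaving out each replicate gave 0 to 4, the 4 without wild type replicate 2. Without homozygous replicate 2 and wild type replicate 1, chosen after inspection, edgeR called 54 genes for homozygous and 22 for heterozygous against wild type; 1 library of each is then left, assumed to vary like the heterozygous pair (1 residual degree of freedom). The median over genes at in-band windows, -0.01 for homozygous and -0.02 for heterozygous against wild type, ran from -0.04 to 0.01 and from -0.01 to 0.03 with each replicate left out. AGO3 passed without an expression filter (adjusted p = 0.00127, edgeR) and without wild type replicate 2 (0.0279), and CSD2 without the filter (0.0308). Both medians took either sign and so did single genes such as DIN2 (-0.54 without homozygous replicate 2); the cause of the changes was not tested.

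With a replicate block edgeR called 0 genes in both comparisons and at in-band windows. Replicate numbers only name the libraries: the replicate differences of homozygous and wild type correlated at -0.364, of heterozygous and wild type at -0.0447. A crossed replicate block, chosen after seeing the data, gave 136 calls for homozygous against wild type. Of the 277 genes tested at in-band windows in that fit 6 were called. It left few residual degrees of freedom. Depth limits windows near 1000 reads to the intervals given, and 1 sRNA library per condition leaves library variation unmeasured.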
